A study of Mus musculus with 3 samples.

Results

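The star strands of the conserved, low-numbered microRNAs were followed in a quantitative PCR screen of mouse microRNAs. They were the assay rows whose name ends in a star and belongs to let-7 or to a microRNA numbered below 290, with 11 numbers left out (those of miR-9, miR-21, miR-31, miR-127, miR-134, miR-136, miR-141, miR-154, miR-199, miR-200 and miR-214). This gave 62 star rows of 709 microRNA rows (119 star rows in all), and 57 guide rows from the same hairpins, since 5 guides are each made by a pair of the listed hairpins. The screen compared 3 cell types with 1 sample each, and each sample was read in 2 PCR runs on 2 plates. They were neural stem cells (NSCs) derived from fetal mouse forebrain, embryonic stem cells (ESCs) and embryonic fibroblasts (MEFs), and the sources used here give no strain, age or sex. The series design states that total RNA was pooled in equal amounts before the assay, so each sample can hold more than 1 culture but has no biological replicate, and no p-value was computed. For MEFs, the deposited threshold cycles differed from those in the study's supplementary table, while the NSC and ESC values were the same in both. The deposited values were used throughout, results with the other MEF values were not analysed here, and only NSC over ESC is free of this difference.

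A microRNA gene is transcribed as a hairpin, which Drosha and Dicer cut down to a short duplex. One strand, the guide, is usually kept in an Argonaute protein, where bases 2 to 8 (the seed) pair with target messages, and the other, the passenger or star strand, is usually degraded. Both strands of a hairpin come from the same transcript, and for some hairpins the strand first named star also accumulates.

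Mature sequences of the RefSeq table (build GRCm38.p6) were used for 56 of the 62 star rows, 42 on the 3p arm and 14 on the 5p arm of the hairpin. None was used for miR-19a*, miR-30b*, miR-124*, miR-133a*, miR-145* and miR-196a*. The arm was taken from microRNA nomenclature, because the deposited tables give assay names only. So was the hairpin copy for let-7a*, let-7f*, miR-7a*, miR-16*, miR-29b*, miR-92a*, miR-125b*, miR-135a* and miR-138*. The guide of each of these can also come from a hairpin copy not followed here, so its star and guide rows can mix hairpins. The sequences that the results turn on are written 5′ to 3′ with the seed in capitals, and the first pair is shown because 2 hairpins give the same star strand.
let-7a*: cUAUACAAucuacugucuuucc
let-7c-2*: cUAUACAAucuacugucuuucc
miR-181a-1*: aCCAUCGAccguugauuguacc
miR-181a-2*: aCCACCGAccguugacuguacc
miR-218-1*: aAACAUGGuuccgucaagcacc
miR-218-2*: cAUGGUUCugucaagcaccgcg
miR-30c-1*: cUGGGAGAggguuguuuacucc
miR-30c-2*: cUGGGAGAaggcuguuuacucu
miR-27a*: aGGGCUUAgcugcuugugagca
miR-27b*: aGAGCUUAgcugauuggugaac
miR-29a*: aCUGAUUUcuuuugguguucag
miR-140*: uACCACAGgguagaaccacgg
miR-150*: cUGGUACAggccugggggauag
The miR-181a, miR-218 and miR-30c pairs are shown because each pair shares 1 guide, so that the star row is the only row that tells the hairpins apart. The miR-181a stars differ at 2 of 22 bases and have different seeds, and the miR-30c stars differ at 3 of 22 bases and share a seed. In GRCm38.p6, miR-181a-1* lies at chr1:137966508-137966529 and miR-181a-2* at chr2:38852785-38852806 inside the gene Nr6a1, both on the plus strand. miR-218-1* lies at chr5:48224005-48224026 inside Slit2 and miR-218-2* at chr11:35616882-35616903 inside Slit3, genes for secreted axon guidance proteins. Over the 56 sequences there were 49 different seeds, and 5 seeds were shared by 12 stars: UAUACAA by let-7a*, let-7b*, let-7c-2* and let-7f*, CUGCAGU by miR-17* and miR-20b*, UGCCUAC by miR-24-1* and miR-24-2*, UGGGAGA by the miR-30c stars and UUUCAGU by miR-30a* and miR-30e*.

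Levels are given as dCt, the number of cycles by which a row crossed the detection threshold after the mean of the reference RNAs U6, RNU43 and U1 of the same plate and sample, so a lower dCt is a higher level. The star rows were late in many wells: 42 of 62 had a mean Ct of at most 32 in NSCs, 25 in ESCs and 41 in MEFs. The references themselves crossed later in ESCs, on the second plate by 2.56 cycles for U6, 1.11 for RNU43 and 2.60 for U1 against NSCs. The median gap between PCR runs was 0.16, 0.24 and 0.16 cycles for star rows up to Ct 32 in NSCs, ESCs and MEFs, and 0.43, 0.57 and 0.32 cycles for later ones. Every star row lay on the second plate and every guide row on the first. The marker lists were chosen with earlier results of these data known, so their counts are not an independent check. Rows listed as NSC markers, such as miR-9 and miR-219, had their lowest dCt in NSCs (5 of 5 called higher than in either other sample). Not every neural microRNA did so. Of the 5 neural or neuronal guides followed here, 0 were called higher in NSCs than in either other sample. In each of these comparisons 2 of them, miR-7a and miR-218, were called lower. ESC markers of the miR-290 and miR-302 clusters had their lowest dCt in ESCs (11 of 13 called higher than in MEFs), though not all had their earliest Ct there. The fibroblast list was not confined to MEFs: its summed level was 1.15 times the reference mean in NSCs, 7.82 times in ESCs and 25.98 times in MEFs, and all 12 rows were measured in each sample. Most of each sum came from 1 row, miR-21, at dCt -0.02 in NSCs, -2.62 in ESCs and -4.42 in MEFs.

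**Figure D1:**
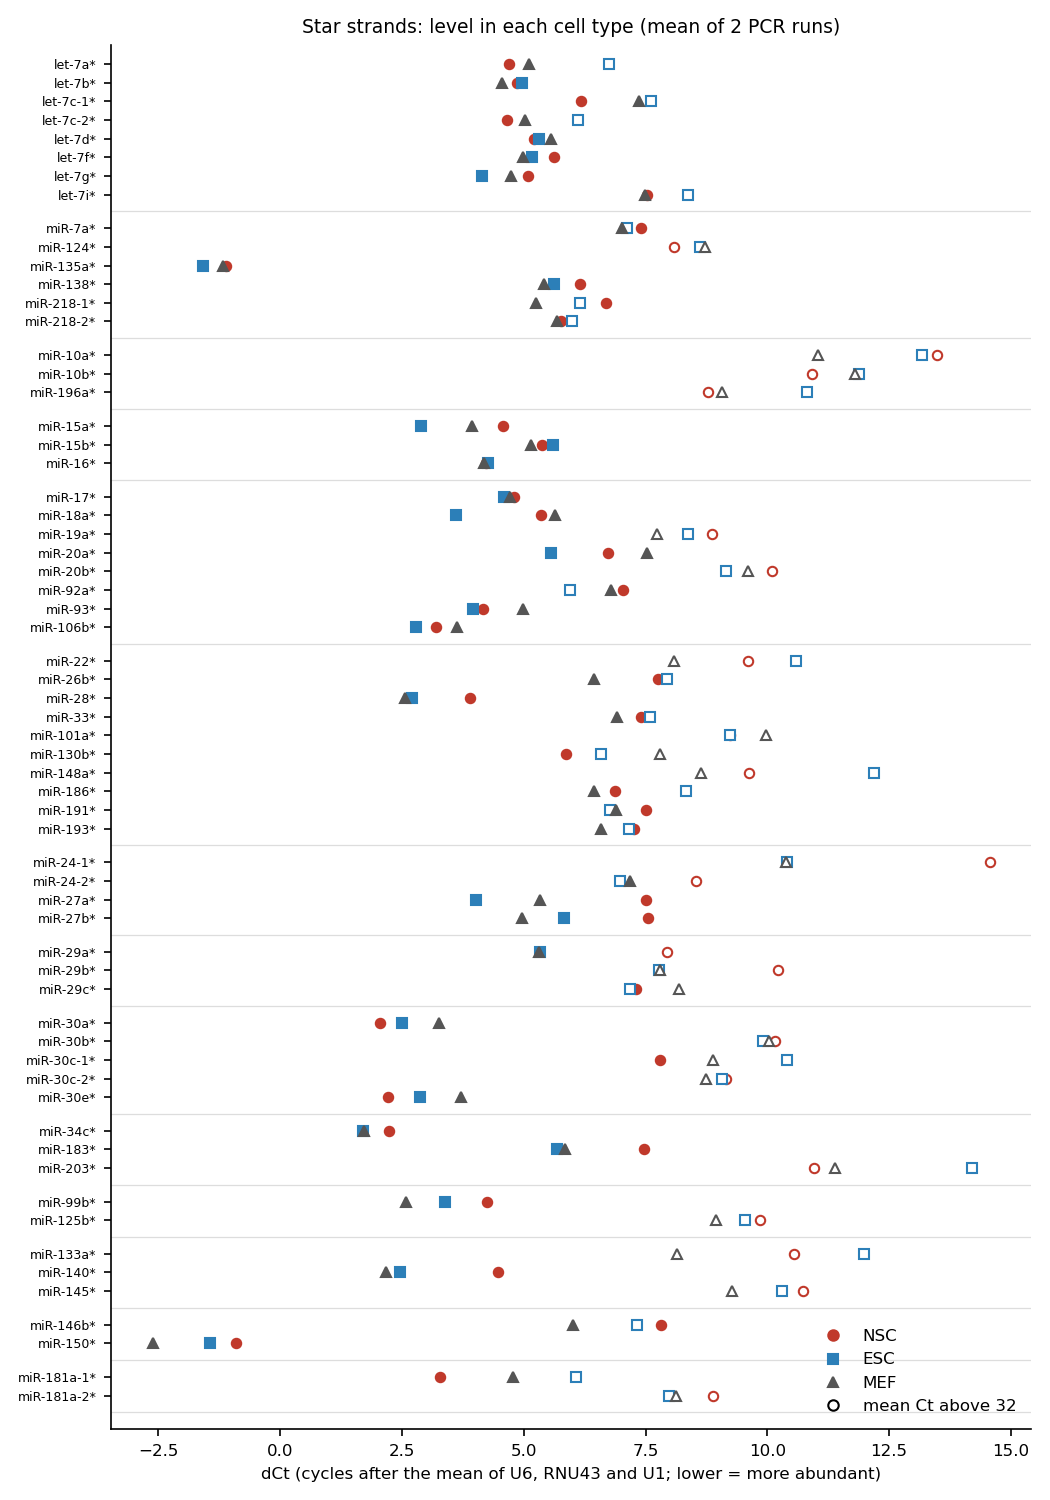
Level of each of the 62 star rows in NSCs, ESCs and MEFs as dCt (cycles after the mean of U6, RNU43 and U1, mean of 2 PCR runs, lower is more abundant), in blocks by hairpin family, with open symbols for a mean Ct above 32. miR-135a* and miR-150* lie below 0 in all 3 cell types, and the rows beyond dCt 10 are all late.

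The star rows spanned dCt -1.11 to 14.6 in NSCs, -1.58 to 14.2 in ESCs and -2.61 to 11.8 in MEFs. The lowest dCt values in every cell type were those of miR-135a* and miR-150*. Each row is a different assay, so the order of rows describes the assays as well as the strands. miR-135a*, whose guide is a brain and bone microRNA, crossed at Ct 22.9 and 23.0 in NSCs, 24.6 and 24.6 in ESCs and 23.2 and 23.2 in MEFs. miR-150*, whose guide is a lymphocyte microRNA, crossed at Ct 23.1 and 23.2 in NSCs, 24.7 and 24.7 in ESCs and 21.7 and 21.9 in MEFs. Runs agreed closely for both, and the levels of miR-150* did not overlap between samples (dCt -0.91, -1.45 and -2.61 in NSCs, ESCs and MEFs). Next in NSCs came miR-30a* at dCt 2.06, miR-30e* at 2.22 and miR-34c*, whose guide is linked to p53, at 2.23. They were followed in ESCs by miR-34c* (1.70), miR-140* (2.46) and miR-30a* (2.51). MEFs had miR-34c* (1.72), miR-140* (2.18) and miR-28* (2.56) in those places. Across the stars with a sequence, GC content and dCt had a Pearson r of -0.40 in NSCs, -0.47 in ESCs and -0.44 in MEFs (n = 56 stars each, sharing sample and plate), so rows of higher GC content tended to be earlier.

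A change was called where the levels differed at least 4-fold (2 on the log2 scale), neither sample had a run inside the range of the other once the reference mean was subtracted, and the higher sample had a mean Ct of at most 32. In NSC over MEF, 4 star rows were called lower (miR-27a*, miR-27b*, miR-29a* and miR-140*) and 0 higher, where 13.9% of all 685 microRNA rows measured in both were called lower and 1.75% higher. In NSC over ESC, 3 were called lower (miR-27a*, miR-29a* and miR-140*) against 14.9% of all 678 rows, and 3 higher (let-7a*, miR-30c-1* and miR-181a-1*) against 2.95%. In ESC over MEF, 1 was called higher (miR-18a*) against 5.3% of all 679 rows, and 0 lower against 3.24%. Members were thus called lower in 6.45% of cases in NSC over MEF and 4.84% in NSC over ESC, below the share over all rows, and called higher in 4.84% in NSC over ESC. The median log2 fold of the star rows was -0.41 in NSC over MEF, -0.26 in NSC over ESC and -0.17 in ESC over MEF, beside -0.48, -0.42 and -0.11 over all microRNA rows. Within 2-fold lay 37, 39 and 40 of the 62 rows. The 3 comparisons share samples and are not independent of each other.

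These splits depended on the reference RNA. On the second plate RNU43 crossed 0.80 cycles later in NSCs than in MEFs, while U6 crossed 0.76 and U1 1.00 cycles earlier. Counts over all 685 microRNA rows in NSC over MEF moved too. RNU43 alone gave 50 of them higher and 60 lower, against 12 and 95 with the mean of the references. U6 alone gave 131 lower, U1 alone more still, and the microRNA mean 73. The moves in the counts were thus not confined to the star rows. In NSC over MEF, RNU43 alone gave 7 star rows higher and 0 lower, U6 alone 0 and 8, U1 alone 0 and 11, and the mean of the microRNAs at Ct up to 32 in all 3 cell types 1 and 2. In NSC over ESC, the same references gave 6 higher and 1 lower, 1 and 7, 1 and 7, and 6 and 1. In ESC over MEF they gave 2 and 0, 2 and 0, 0 and 1, and 0 and 1. Under RNU43 alone the median over all microRNA rows moved by 1.15 in NSC over MEF, 0.98 in NSC over ESC and 0.16 in ESC over MEF, so the star rows and all rows moved together. The direction of the 11 called values was the same under all 5 references, but it could not have changed. Each reference moved the rows of the second plate by 1 constant, smaller than the log2 fold of 2 that a call needs. miR-27a* and miR-181a-1* in NSC over ESC were called under each reference.

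**Figure D2:**
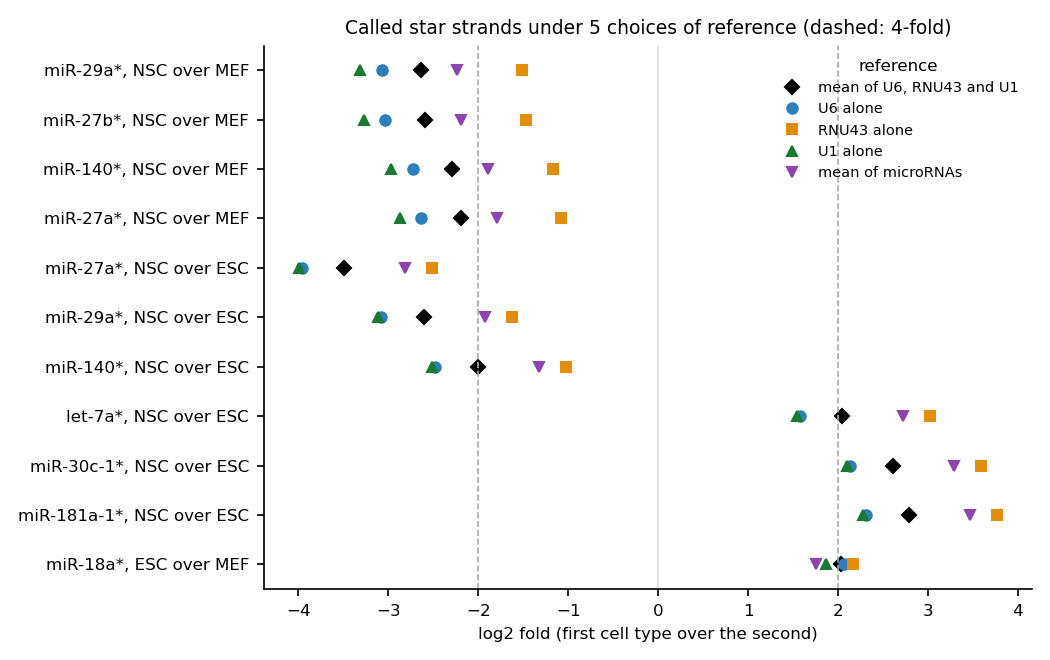
Log2 fold of the 11 called values (first cell type over the second) under 5 references: the mean of U6, RNU43 and U1, each alone, and the mean of the early microRNAs, with dashed lines at 4-fold. RNU43 alone moves NSC folds to the right, by less than the 4-fold limit, so no called value can change sign.

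Of the 4 stars of the miR-24 and miR-27 hairpins, whose guides are known from muscle and fat cell differentiation, 2 were called lower in NSC over MEF and 1 in NSC over ESC. miR-27a* crossed at Ct 31.5 and 31.7 in NSCs, 30.3 and 30.1 in ESCs and 29.8 and 29.6 in MEFs, and after subtraction of the reference the 3 samples had separate runs (mean dCt 7.52, 4.03 and 5.32). It was 11.2-fold lower in NSC over ESC (log2 fold -3.49 ± 0.14, where the error is the run error of 2 PCR runs per sample) and 4.58-fold lower in NSC over MEF (-2.19 ± 0.12). Its guide miR-27a had dCt 2.64 in NSCs, -0.80 in ESCs and -1.22 in MEFs, log2 folds of -3.44 ± 0.08 over ESC and -3.86 ± 0.29 over MEF. Star and guide of this hairpin therefore differed by about the same amount between NSCs and ESCs (shift -0.05 ± 0.16, the star log2 fold minus that of the guide). miR-27b* crossed at Ct 31.7 and 31.5 in NSCs, 32.2 and 31.8 in ESCs and 29.4 and 29.3 in MEFs. It was 6.02-fold lower in NSC over MEF (-2.59 ± 0.12) and stood at -1.71 ± 0.21 in NSC over ESC, where its guide stood at -3.91 ± 0.06. The shift of this hairpin was 2.20 ± 0.22 in NSC over ESC, larger than its run error. miR-24-1* had the lowest log2 fold of all star rows in NSC over MEF (-4.17 ± 0.70) and in NSC over ESC (-4.17 ± 0.76), but was late in every sample (Ct 39.1 and 38.1 in NSCs, 37.1 and 36.0 in ESCs, 34.3 and 35.3 in MEFs) and was not called. miR-24-2*, with the same seed and guide, was at -1.36 ± 0.28 over MEF and -1.56 ± 0.36 over ESC, and the shared guide miR-24 at -2.77 ± 0.10 and -3.16 ± 0.11.

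The miR-29 guides, which bind collagen messages, were all called lower in NSC over MEF, and their stars split. miR-29a* crossed at Ct 32.1 and 31.9 in NSCs, 31.5 and 31.5 in ESCs and 29.5 and 29.9 in MEFs. It was 6.20-fold lower in NSC over MEF (-2.63 ± 0.20) and 6.08-fold lower in NSC over ESC (-2.60 ± 0.11), with ESCs and MEFs at nearly the same level (dCt 5.34 and 5.31). miR-29b*, from the hairpin next to it, stood at -2.43 ± 0.73 and -2.44 ± 0.84 but was not called, since its mean Ct was past 32 in MEFs (32.18) and ESCs (33.94) as well as in NSCs (34.28). miR-29c*, from a separate locus, did not go the same way: its dCt was 7.30 in NSCs, 7.17 in ESCs and 8.19 in MEFs, and its log2 fold 0.89 ± 0.48 over MEF and -0.13 ± 0.13 over ESC. Its guide miR-29c was called lower in both (-3.81 ± 0.03 over MEF and -3.93 ± 0.21 over ESC). The shifts of the miR-29c hairpin were 4.70 ± 0.49 and 3.81 ± 0.25, with the star at Ct 31.2 and 31.5 in NSCs, 33.31 and 33.34 in ESCs and 33.04 and 32.11 in MEFs.

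miR-140* comes from an intron of Wwp2 and is known from cartilage, where this strand is the abundant one. It crossed at Ct 28.5 and 28.6 in NSCs, 28.5 and 28.8 in ESCs and 26.6 and 26.5 in MEFs, and its dCt was 4.47, 2.46 and 2.18. It was 4.89-fold lower in NSC over MEF (-2.29 ± 0.08) and 4.02-fold lower in NSC over ESC (-2.01 ± 0.16), at the edge of the 4-fold limit. The row named miR-140 was 3.29, 4.26 and 4.84 cycles behind it in NSCs, ESCs and MEFs and was not called in any comparison (-0.74 ± 0.10 over MEF and -1.04 ± 0.17 over ESC). miR-27a*, miR-27b*, miR-29a* and miR-140* had negative log2 folds in both NSC comparisons. Of the fibroblast list, 10 of 12 rows were called lower in NSC over MEF and 9 of 12 in NSC over ESC. In ESC over MEF that list had a median log2 fold of -1.24. There miR-27b* stood at -0.88, miR-140* at -0.28, miR-29a* at -0.03 and miR-27a* at 1.30. The part of the fibroblast list in these results was not tested. With RNU43 alone as the reference, miR-27a*, miR-27b*, miR-29a* and miR-140* were no longer called in NSC over MEF, with log2 folds of -1.08, -1.47, -1.51 and -1.17, and miR-29a* and miR-140* were no longer called in NSC over ESC, at -1.62 and -1.03. With the microRNA mean, miR-27a* (-1.79) and miR-140* (-1.89) were not called in NSC over MEF, nor miR-29a* (-1.92) and miR-140* (-1.32) in NSC over ESC, where miR-140* also missed the limit with the second run alone (-1.92) and with 1.9-fold amplification (-1.86).

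**Figure D3:**
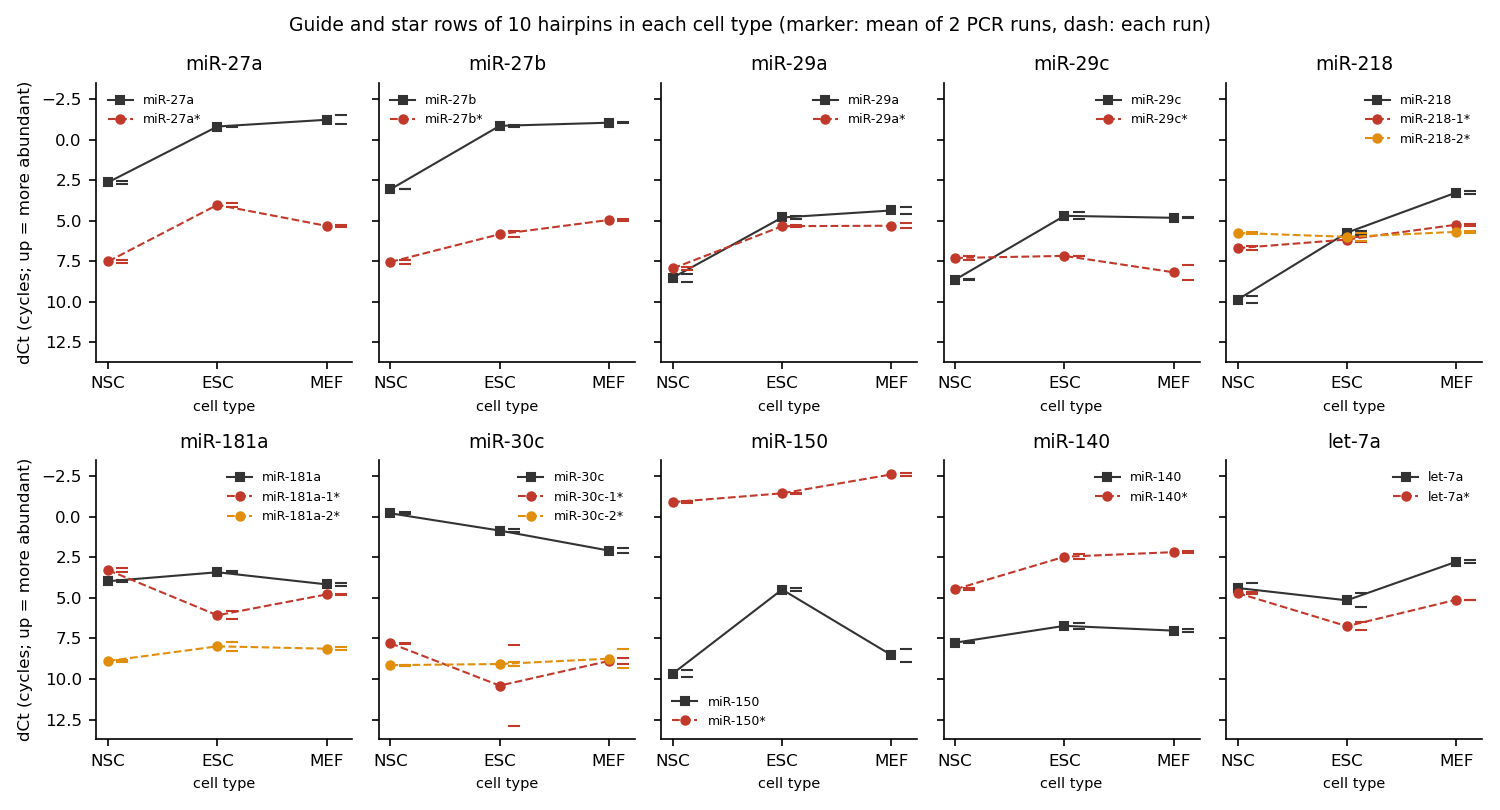
dCt of the guide row (black squares) and of its star row or rows (circles) of 10 hairpins in NSCs, ESCs and MEFs (axis inverted, up is more abundant, markers are means of 2 PCR runs and dashes the runs). The miR-27 and miR-29a strands are low together in NSCs, while miR-218 is low in NSCs with miR-218-1* lower by less and miR-218-2* near its level in the other samples, and miR-181a-1* is highest in NSCs with miR-181a and miR-181a-2* nearly flat.

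The star of 1 miR-181a hairpin was high in NSCs and the other was not. miR-181a, a microRNA known for tuning T cell receptor signalling, is made by 2 hairpins that give the same guide. miR-181a-1* crossed at Ct 27.5 and 27.2 in NSCs, 31.99 and 32.46 in ESCs and 29.2 and 29.2 in MEFs. Its dCt was 3.28, 6.07 and 4.78, with no overlap between the samples, and it was 6.91-fold higher in NSC over ESC (2.79 ± 0.28) and at 1.501 ± 0.15 in NSC over MEF. miR-181a-2* crossed at Ct 32.87 and 33.04 in NSCs, 33.9 and 34.4 in ESCs and 32.4 and 32.6 in MEFs, with log2 folds of -0.90 ± 0.28 over ESC and -0.76 ± 0.13 over MEF. The shared guide stood at -0.55 ± 0.10 over ESC and 0.19 ± 0.10 over MEF, so it did not show the difference between the hairpins. The level of miR-181a-1* was 5.60 cycles ahead of that of miR-181a-2* in NSCs, 1.91 in ESCs and 3.35 in MEFs.

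The 8 let-7 stars, from hairpins whose guides rise as cells differentiate and whose maturation Lin28 blocks in ESCs, had median log2 folds of 0.16 in NSC over MEF, 0.48 in NSC over ESC and -0.32 in ESC over MEF. Their 7 guides had medians of -1.07, 0.76 and -1.79, and 3 of the 7 guides (let-7a, let-7d and let-7f) and 0 of the 8 stars were called lower in ESC over MEF. let-7a* crossed at Ct 28.8 and 28.7 in NSCs, 32.6 and 33.2 in ESCs and 29.5 and 29.5 in MEFs. It was 4.13-fold higher in NSC over ESC (2.05 ± 0.26), just past the limit, and was no longer called with U6 alone (1.57), U1 alone (1.54), the first run alone (1.72) or 1.9-fold amplification (1.89). let-7c-2*, with the same mature sequence, crossed at Ct 28.8 and 28.6 in NSCs, 32.4 and 32.1 in ESCs and 29.4 and 29.5 in MEFs, and at 1.45 ± 0.20 it was not called. The 2 assays of this 1 sequence were 0.036 cycles apart in NSCs, 0.63 in ESCs and 0.080 in MEFs, and their log2 folds in NSC over MEF were 0.42 ± 0.07 and 0.37 ± 0.12. let-7b* and let-7f*, which differ from that sequence at 3 of 22 bases, stood at 0.12 ± 0.54 and -0.45 ± 0.11 in NSC over ESC, and let-7g* at -0.95 ± 0.11. In let-7g the guide went the other way (1.43 ± 0.21 in NSC over ESC), a shift of -2.38 ± 0.23.

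The miR-30 stars separated by how early they crossed. miR-30a* and miR-30e*, which differ at 1 of 22 bases, were early and moved alike. miR-30a* crossed at Ct 26.1 and 26.1 in NSCs, 28.7 and 28.7 in ESCs and 27.7 and 27.6 in MEFs (1.21 ± 0.05 in NSC over MEF), and miR-30e* at Ct 26.3 and 26.3, 29.2 and 28.9, and 27.9 and 28.3 (1.49 ± 0.21). Neither reached 4-fold. miR-30c-1* shares an intron host, Nfyc, with miR-30e*, and crossed at Ct 31.8 and 31.9 in NSCs, 34.1 and 39.1 in ESCs and 33.1 and 33.4 in MEFs. Its call in NSC over ESC (2.61 ± 2.51) rested on ESC runs 5.03 cycles apart, and the log2 fold was 0.14 with the first run alone and 5.08 with the second. miR-30c-2* was at -0.07 ± 0.13 in NSC over ESC. Their guide miR-30c was called higher in NSC over MEF (2.30 ± 0.15), where miR-30c-1* stood at 1.09 ± 0.17 and miR-30c-2* at -0.40 ± 0.57.

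The stars of the miR-17 cluster and its paralogues, whose guides promote proliferation, had median log2 folds of 0.10 in NSC over MEF, -0.71 in NSC over ESC and 0.85 in ESC over MEF, and their guides 0.48, -0.95 and 1.36. miR-18a* crossed at Ct 29.3 and 29.5 in NSCs, 29.78 and 29.76 in ESCs and 30.03 and 30.04 in MEFs, and was 4.09-fold higher in ESC over MEF (2.03 ± 0.01). Its guide miR-18a stood at 1.94 ± 0.14, and the star and guide levels of this hairpin were within 0.2 cycles of each other in each cell type. miR-20a* stood at 1.97 ± 0.56 in ESC over MEF with its guide at 1.92 ± 0.13, and the shifts of miR-18a, miR-20a, miR-92a and miR-93 were within their run errors in NSC over MEF. The shifts of miR-17 (-0.71 ± 0.18), miR-19a (-0.57 ± 0.25), miR-20b (-1.30 ± 0.16) and miR-106b (0.51 ± 0.15) were beyond theirs. The run error holds no term for the references of the 2 plates, so this does not by itself show a strand difference. miR-20b*, with the seed of miR-17*, was 5.28, 4.54 and 4.88 cycles behind miR-17* in NSCs, ESCs and MEFs. With U1 alone or the microRNA mean as the reference, the log2 fold of miR-18a* was 1.86 and 1.75, and it was not called.

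The remaining families held no called star. The stars of miR-15a, miR-15b and miR-16, from cell cycle regulators in the Dleu2 and Smc4 genes, had log2 folds of -0.63 to -0.05 in NSC over MEF, while their guides lay at 0.69 to 0.95. Over ESCs, NSC miR-16 was called higher (2.63 ± 0.11) and miR-16* stood at 0.03 ± 0.19, a shift of -2.60 ± 0.22. Another hairpin, beside that of miR-15b, also makes the guide miR-16, so this shift can mix hairpins. miR-15a* stood at -1.68 ± 0.13 with its guide at 1.69 ± 0.29, opposite in sign. miR-130b* had the highest log2 fold of all star rows in NSC over MEF (1.92 ± 0.13), with Ct 30.02 and 29.87 in NSCs, 32.49 and 32.99 in ESCs and 32.1 and 32.3 in MEFs, and its guide stood at 0.20 ± 0.29. miR-183*, from a sensory organ cluster, stood at -1.79 ± 0.05 in NSC over ESC, where its guide was called lower (-4.17 ± 0.28). miR-99b* and miR-125b*, partners of let-7 hairpins, stood at -1.64 ± 0.29 and -0.90 ± 0.04 in NSC over MEF, with their guides at -1.17 ± 0.06 and -1.91 ± 0.07. The stars of 6 hairpins with neural or neuronal guides (miR-7a*, miR-124*, miR-135a*, miR-138*, miR-218-1* and miR-218-2*) had log2 folds of -1.44 to 0.64 in NSC over MEF and -0.53 to 0.53 in NSC over ESC, with none called. miR-124*, whose guide drives neuronal differentiation, crossed at Ct 32.3 and 32.04 in NSCs, 35.4 and 34.1 in ESCs and 32.4 and 33.8 in MEFs, and differed by less than its run error in each comparison. miR-7a* stood at -0.29 ± 0.32 in NSC over ESC, where its guide miR-7a was called lower (-3.54 ± 0.38), a shift of 3.25 ± 0.50. The 10 stars outside these families lay between -1.54 and 1.92 in NSC over MEF and between -1.18 and 2.57 in NSC over ESC, with medians of -0.64 and 0.18.

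At least 4-fold but not called were 4 star rows in NSC over MEF, 5 in NSC over ESC and 5 in ESC over MEF, among them miR-148a* (2.57 ± 2.61 in NSC over ESC), miR-133a* (-3.84 ± 1.64 in ESC over MEF) and miR-22* (-2.50 ± 1.71 in ESC over MEF). Each of these had a run gap of more than 3 cycles in ESCs. miR-203* had 1 ESC run unmeasured and the other at Ct 40.4.

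Set side by side with their guides, the followed star rows varied less between cell types. The SD of log2 folds over rows was 1.21 for these stars and 2.31 for guides in NSC over MEF, 1.42 and 2.40 in NSC over ESC, and 1.17 and 1.44 in ESC over MEF. The 57 other star rows of the screen had SDs of 2.70, 2.74 and 1.61, above those of the guides followed here. Their log2 folds ran from -9.87 to 10.63 in NSC over MEF. The low SD of the followed stars was thus not shared by the other star rows as a set. Those rows were not set against their own guides, so whether they varied less than these was not tested. Of the guides, 13 of 56 were called lower in NSC over MEF, 13 in NSC over ESC and 6 in ESC over MEF, and 1, 3 and 2 were called higher. Called lower were thus 23.2%, 23.2% and 10.7% of guides, beside 13.9%, 14.9% and 3.24% of all microRNA rows. Called higher were 1.79%, 5.36% and 3.57% of guides, beside 1.75%, 2.95% and 5.3% of all rows. Of the 15 hairpins whose guide was called lower in NSC over MEF, 3 had a star called lower and 12 had a star log2 fold below 0. In 9 of them the star was later than Ct 32 in at least 1 of the 2 samples. A fall is hard to see where the higher sample is itself late. miR-29a*, late only in NSCs (mean Ct 32.01), was called lower. The median over these hairpins was -1.44 for the star and -4.14 for the guide. The guide was called lower in NSC over ESC in 15 hairpins, and the star in 2 of them (medians -0.53 and -4.13, with 11 of the stars later than Ct 32 in at least 1 of the 2 samples). Across hairpins the star and guide log2 folds had a Pearson r of 0.34 in NSC over MEF, 0.23 in NSC over ESC and 0.30 in ESC over MEF (n = 61 hairpins, some sharing a guide row). Where all mean Ct values were at most 32, r was 0.55 (n = 33), 0.65 (n = 19) and 0.54 (n = 20).

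**Figure D4:**
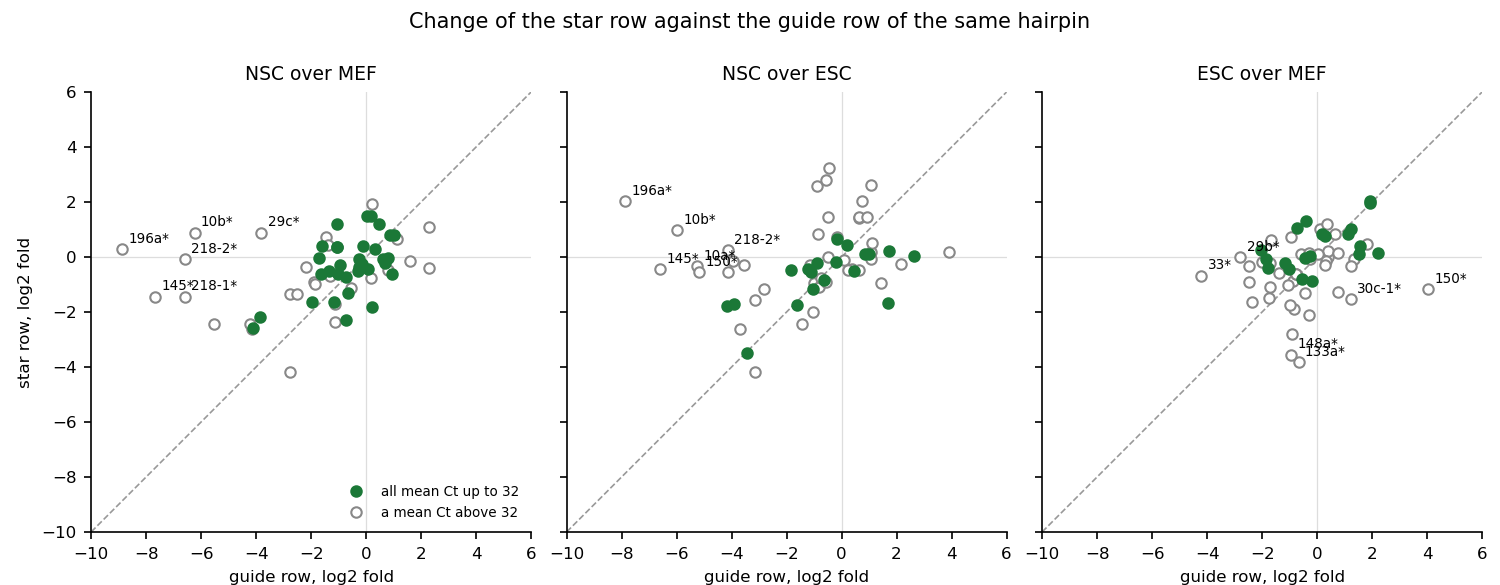
Log2 fold of the star row (y axis) against that of the guide row (x axis) for 61 hairpins in NSC over MEF, NSC over ESC and ESC over MEF, with the line of equal change dashed and filled points where all mean Ct values were at most 32. In both NSC panels the miR-196a, miR-145, miR-218, miR-10a and miR-10b points lie left of the dashed line, all of them open, with stars from -2.45 to 2.04, and the hairpins with the largest shifts are named by number.

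The shift, the star log2 fold minus that of the guide, leaves out any constant difference between the 2 assays. It still holds any difference in how the references of the 2 plates changed between cell types, which its run error does not cover. The median shift over hairpins was 0.63 in NSC over MEF, 0.55 in NSC over ESC and 0.15 in ESC over MEF. In these comparisons 12, 19 and 11 of 61 hairpins had a shift of at least 2 in either direction. The largest shifts were in hairpins whose guide was much lower in NSCs. miR-196a and miR-10b, from the Hox clusters that pattern the trunk, and miR-145, a smooth muscle microRNA, had guide log2 folds of -8.86 ± 0.56, -6.24 ± 0.72 and -7.66 ± 0.09 in NSC over MEF. The stars stood at 0.29 ± 0.25 for miR-196a*, 0.88 ± 0.27 for miR-10b* and -1.44 ± 1.42 for miR-145*. All 3 stars were later than Ct 32 in each sample, between 32.6 and 40.0, so none of them was early in any cell type. The third Hox hairpin, miR-10a, had its guide at -5.53 ± 0.19 and its star at -2.45 ± 1.37, with the star later than Ct 35 in each sample.

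In NSC over MEF, miR-218 had the largest shifts among stars with a mean Ct of at most 32 in both NSCs and MEFs. The guide, known from motor neurons, crossed at Ct 33.57 and 34.03 in NSCs, 31.5 and 31.8 in ESCs and 27.5 and 27.7 in MEFs, and was called lower in NSC over MEF (-6.60 ± 0.26), in NSC over ESC (-4.13 ± 0.27) and in ESC over MEF (-2.47 ± 0.17). miR-218-1* crossed at Ct 30.9 and 30.6 in NSCs, 32.5 and 32.2 in ESCs and 29.6 and 29.7 in MEFs (-1.44 ± 0.16 in NSC over MEF). miR-218-2* crossed at Ct 29.8 and 29.9 in NSCs, 31.9 and 32.4 in ESCs and 30.15 and 30.004 in MEFs (-0.07 ± 0.11). miR-218-1* was lower in NSCs by less than the guide, with runs apart, and miR-218-2* stood within its run error of no difference. The shifts in NSC over MEF were 5.16 ± 0.30 and 6.54 ± 0.28, and ranged over 4.74 to 5.49 and 6.05 to 6.61 under the other processing settings. In NSCs the stars were 3.18 and 4.11 cycles ahead of the guide, and in MEFs 1.98 and 2.42 cycles behind it.

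A star row was ahead of its guide row in 22 of 61 hairpins in NSCs, 15 of 61 in ESCs and 12 of 62 in MEFs, and in 8 hairpins in all 3 (let-7g*, miR-18a*, miR-28*, miR-106b*, miR-135a*, miR-140*, miR-150* and miR-193*). The median star row was 0.96 cycles behind its guide in NSCs, 2.34 in ESCs and 2.28 in MEFs. The 2 rows are different assays on different plates, so these gaps describe the assays as well as the strands. The widest was miR-150*, ahead of miR-150 by 10.6 cycles in NSCs, 5.93 in ESCs and 11.1 in MEFs. The guide miR-150 crossed at Ct 33.8 and 33.4 in NSCs, 30.3 and 30.5 in ESCs and 32.5 and 33.3 in MEFs. It was called lower in NSC over ESC (-5.18 ± 0.23) and higher in ESC over MEF (4.04 ± 0.41), while miR-150* stood at -0.54 ± 0.06 and -1.16 ± 0.10. In ESC over MEF the other large shifts were those of miR-33 (3.53 ± 0.61), whose guide lies in the cholesterol regulator gene Srebf2 and was called lower (-4.20 ± 0.46), miR-133a (-3.17 ± 1.67), miR-29b (2.79 ± 1.70) and miR-30c-1 (-2.76 ± 2.53), the last of which was near its run error. miR-33* itself stood at -0.68 ± 0.39, with Ct 34.1 and 33.4 in ESCs and 31.3 and 31.3 in MEFs.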

How the data were processed

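Total RNA was extracted with Qiagen kits, tailed with poly-A, reverse transcribed from an oligo-dT adaptor and amplified for 40 cycles with SYBR Green on a System Biosciences mouse panel (miRBase version 14), per the labels. The values used were threshold cycles (Ct), deposited by the authors before normalization, for 2 PCR runs of 1 sample per cell type. The sources used here do not state how baseline and threshold were set. The tables of normalized values were not used: for ESCs on plate 1 the deposited dCt was 6.90 cycles lower than the one computed from the Ct values, and the other 5 columns were equal. Tables of the authors' fold changes and p-values were not used.

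dCt was calculated by subtracting from the run average of a row the average of U6, RNU43 and U1 of the same plate and sample. Log2 fold was the difference of dCt, assuming doubling per cycle, and its error was the SD of the runs over the square root of 2, added in quadrature, which covers PCR error only. A call needed a fold of at least 4, runs separate between the samples, and, in the sample with more of the RNA, an average no later than Ct 32. With 1 sample per cell type no test was made. The call rule was tested on simulated data, with changes larger than the limit and the same run noise for all rows. That test did not cover late changed rows, the wider run gaps of late rows or disagreement between the references. Members named were those called, the 3 highest and 3 lowest in each comparison, the 5 lowest dCt in each cell type, the 5 largest shifts, those ahead of their guide in all samples, those sharing a sequence or seed, and families by range. Members and lists were chosen with earlier results of these data known. Alternatives were each reference alone, the mean of the early microRNAs, Ct set to 35 where later or unmeasured, each run alone, 1.9-fold amplification, a 2-fold limit and a Ct limit of 35. Python 3.11.15, pandas 2.3.3, numpy 2.4.6 and matplotlib 3.10.9 were used.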

Additional observations from a re-analysis of the deposited data

How the results depend on the processing

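The alternatives moved counts, medians and single folds. Counts over all microRNA rows moved with the reference as well, so the star counts below are not results about the star rows alone. In NSC over MEF, the count called lower was 8 with U6 alone, 0 with RNU43 alone, 11 with U1 alone, 2 with the microRNA mean, 12 at 2-fold and 7 at Ct up to 35, and the count called higher was 7 with RNU43 alone, 1 with the microRNA mean, 1 with the second run alone and 6 at 2-fold. In NSC over ESC, the count called lower was 7 with U6 alone, 1 with RNU43 alone, 7 with U1 alone, 1 with the microRNA mean and 9 at 2-fold, and the count called higher was 1 with U6 alone, 6 with RNU43 alone, 1 with U1 alone, 6 with the microRNA mean, 1 with the first run alone and 6 at 2-fold. In ESC over MEF, the count called higher was 2 with U6 alone, 2 with RNU43 alone, 0 with U1 alone, 0 with the microRNA mean, 2 with the first run alone, 0 with 1.9-fold amplification and 5 at 2-fold, and the count called lower was 1 with U1 alone, 1 with the microRNA mean, 1 with the first run alone, 7 at 2-fold and 3 at Ct up to 35.

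The median log2 fold of the members in NSC over MEF was -0.85 with U6 alone, 0.71 with RNU43 alone, -1.09 with U1 alone, -0.011 with the microRNA mean, -0.42 with late wells set to Ct 35, -0.43 with the first run alone and -0.38 with 1.9-fold amplification. In NSC over ESC it was -0.74 with U6 alone, 0.72 with RNU43 alone, -0.77 with U1 alone, 0.42 with the microRNA mean, -0.48 with late wells set to Ct 35, -0.33 with the first run alone and -0.37 with the second. In ESC over MEF it was -0.031 with RNU43 alone, -0.34 with U1 alone, -0.45 with the microRNA mean and 0.015 with late wells set to Ct 35. Moving the reference moves every row of a plate by 1 constant. Over all microRNA rows the median moved by -0.46, 1.15, -0.68 and 0.58 in NSC over MEF with U6, RNU43, U1 and the microRNA mean, and the members' median stayed within 0.3 of that of all rows under each.

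The median shift in NSC over MEF was 0.21 with the microRNA mean and 0.34 with the second run alone. In NSC over ESC it was 0.70 with U6 alone, 0.38 with U1 alone, 0.053 with late wells set to Ct 35, 0.31 with the first run alone, 0.36 with the second and 0.50 with 1.9-fold amplification. In ESC over MEF it was 0.064 with U6 alone, 0.061 with RNU43 alone, 0.32 with U1 alone, -0.28 with the microRNA mean, 0.45 with late wells set to Ct 35, 0.19 with the first run alone and 0.17 with the second. In a setting added after seeing the data, only rows at Ct up to 32 in both samples, the median log2 fold was -0.35, -0.53 and 0.12 and the median shift 0.20, -0.051 and 0.34 in NSC over MEF, NSC over ESC and ESC over MEF. The cause of these differences was not tested. The 5 largest shifts of each comparison among hairpins with every well measured all kept their sign under every alternative that gave a value. They were picked for their size, and not all kept it. In ESC over MEF the shift of miR-133a ranged from -5.27 to -0.019 and that of miR-30c-1 from -5.08 to -0.44.

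With 1 sample per cell type there is no measure of biological spread, and late star rows, most of all in ESCs, leave little room to show a fall. Without the second ESC run miR-30c-1* was not called.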
